A study of Mus musculus with 12 samples.

Results

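Complement is the plasma cascade that tags microbes and damaged cells, and 9 of its genes were followed here: C3, Hc, Cfb, Cfi, C4b, C2, Cd55, Cd59a and Serping1. They were chosen by symbol, matched to Ensembl identifiers through GENCODE M21, and all 9 were found among the 56262 genes of the lung count table and the 54532 genes of the AT2 count table. The lung table holds 3 lung tumours and the adjacent normal lung of the same 3 mice (102, 217 and 224), C57BL/6 animals aged 18 months whose genotype is Med23 knockout in T cells. The AT2 table holds sorted alveolar type 2 (AT2) cells, the surfactant-making cells of the alveolus, from 3 such knockout mice (175, 179 and 191) and 3 wild-type mice (176, 177 and 190), all C57BL/6 and aged 6 months. Med23 encodes a subunit of Mediator, a coactivator of gene transcription. All tumours and all adjacent lung therefore carry the T-cell deletion, and no lung of wild-type mice stands beside them. Neither the promoter that drove the deletion nor the markers used for the sort are named in the labels.

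Most plasma complement is made by the liver, but lung epithelium, macrophages and stromal cells also make components locally. The classical and lectin routes cut C4 and C2, and the alternative route uses factor B; all of them build enzymes that cleave C3, whose fragments coat targets. Cleavage of C5, encoded in mice by Hc, releases a chemoattractant and starts the membrane attack complex. Factor I (Cfi) cuts activated C3 and C4 down, C1 inhibitor (Serping1) blocks the first proteases, and Cd55 and Cd59a encode membrane proteins that protect host cells.

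The libraries held 65163100 to 77951014 counts in lung and 15943084 to 18913242 in AT2 cells. Levels are CPM (counts divided by the TMM-scaled library total), given as mean ± SD over 3 libraries, and a gene was called at an adjusted p under 0.05 with edgeR. Med23 was at 18.3 to 36.8 CPM in tumours, 21.0 to 31.5 CPM in adjacent lung, 42.1 to 46.5 CPM in knockout AT2 cells and 34.4 to 46.4 CPM in wild-type AT2 cells; since the deletion was in T cells, these values check no label. Some libraries stood apart. The second principal component of the lung libraries, with 21.3% of the variance, placed tumour 217 at -126 and adjacent 217 at -76.7, against 32.2 to 60.6 for the other 4. The first component of the AT2 libraries, with 45.6% of the variance, placed wild-type 177 at 64.6, against -14.6 to -11.3 for the other 5. The 10 AT2 markers summed to 171893 to 173228 CPM in knockout and 172667 to 231729 CPM in wild-type AT2 cells, and the 7 T cell markers to 1.43 to 2.28 and 0.172 to 1.18 CPM. The 7 hepatocyte markers summed to 6.27 to 26.8 CPM in the tumours and 21.2 to 32.8 CPM in adjacent lung. By mean, Alb weighed most in the tumours (10.7 ± 10.3 CPM, against 6.01 ± 9.64 in adjacent lung). Fga weighed most in adjacent lung (15.9 ± 7.86 CPM, against 1.92 ± 1.86 in the tumours).

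The members divided into a set that AT2 cells transcribed and a set that they barely did. C3 and Hc were the members with the most RNA in AT2 cells, and the 250 bases before their RefSeq starts (GRCm38.p6) are shown because both genes were high there while the letters before them differ. The C3 stretch is chr17:57228137-57228386 and the Hc stretch chr2:35061413-35061662, both on the minus strand and written 5′ to 3′. Capitals mark matches, on either strand, to a C/EBP motif (TTNNGCAA) or to an NF-kB motif (GGG, any 5 bases, then CC), named for factor families known to act on the human C3 promoter.
C3: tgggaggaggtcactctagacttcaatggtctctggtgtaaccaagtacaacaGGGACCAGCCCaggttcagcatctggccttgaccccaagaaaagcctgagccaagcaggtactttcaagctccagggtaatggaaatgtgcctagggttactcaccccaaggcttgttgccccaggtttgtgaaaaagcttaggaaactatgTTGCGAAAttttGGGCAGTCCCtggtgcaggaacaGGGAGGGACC
Hc: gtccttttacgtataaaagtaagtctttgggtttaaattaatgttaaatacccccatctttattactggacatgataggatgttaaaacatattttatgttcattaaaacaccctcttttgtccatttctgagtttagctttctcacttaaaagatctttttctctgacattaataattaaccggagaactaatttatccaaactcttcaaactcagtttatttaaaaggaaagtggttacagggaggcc
The C3 stretch held 1 C/EBP match and 4 NF-kB matches, of which 2 overlap each other, and the Hc stretch held neither letter pattern. Of 32851 mouse promoters of this length, 9.56% held the C/EBP letters and 45.8% the NF-kB letters. A STAT pattern (TTCNNNGAA) was in neither stretch and in 7.02% of all promoters. A match is a description of letters and not a site, and the table held promoters for 4 of the 9 members.

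Compared per length, Hc led in AT2 cells by a wide margin. It averaged 1049 ± 28.6 CPM per kb of exon in knockout and 1079 ± 135 CPM per kb in wild-type AT2 cells (SD, n = 3 each), rank 22 among 21995 protein-coding genes in both groups. C3 followed at 111 ± 2.25 and 93.7 ± 5.90 CPM per kb, Cd55 at 14.8 ± 0.573 and 18.2 ± 6.46, and Cd59a at 4.28 ± 1.42 and 5.11 ± 1.85. The ranges of these 4 genes did not overlap one another in either group. Cfi, C4b, Serping1, C2 and Cfb all averaged below 1 CPM per kb, and the ranges of Cfi and C4b overlapped, as did those of C4b and Serping1. The 6 AT2 libraries together held 3 counts of Cfb in knockout and 6 in wild-type cells, 3 and 16 counts of C2, and 15 and 12 counts of Serping1. The floor, taken as 3 counts in a library, was worth 0.165 to 0.181 CPM, and most of these libraries held no more than that of Cfb and C2.

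Whole lung gave another order. In tumours Hc averaged 138 ± 106 CPM per kb, C4b 103 ± 48.0, C3 63.5 ± 30.3 and Serping1 43.8 ± 28.6, and each of these overlapped the next in range. Cfi at 20.7 ± 3.42 and Cfb at 15.7 ± 4.88 CPM per kb overlapped too, and below them stood Cd55 at 8.75 ± 2.66 and Cd59a at 7.48 ± 4.20, which overlapped, and C2 at 1.03 ± 0.846. In adjacent lung Serping1, at 191 ± 38.6, and C3, at 186 ± 46.5 CPM per kb, were highest and overlapped in range. Hc followed at 107 ± 11.0, C4b at 79.2 ± 19.0 and Cfb at 36.3 ± 21.4, none overlapping its neighbour above. Cd55 at 11.1 ± 3.36 CPM per kb overlapped Cfb, C2 at 6.02 ± 1.06 overlapped Cd59a at 5.45 ± 1.24, and Cfi was lowest at 1.92 ± 0.672. By mean, Cfi thus stood between Serping1 and Cfb in tumours and last in adjacent lung, but in tumours its range overlapped those of both.

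**Figure D1:**
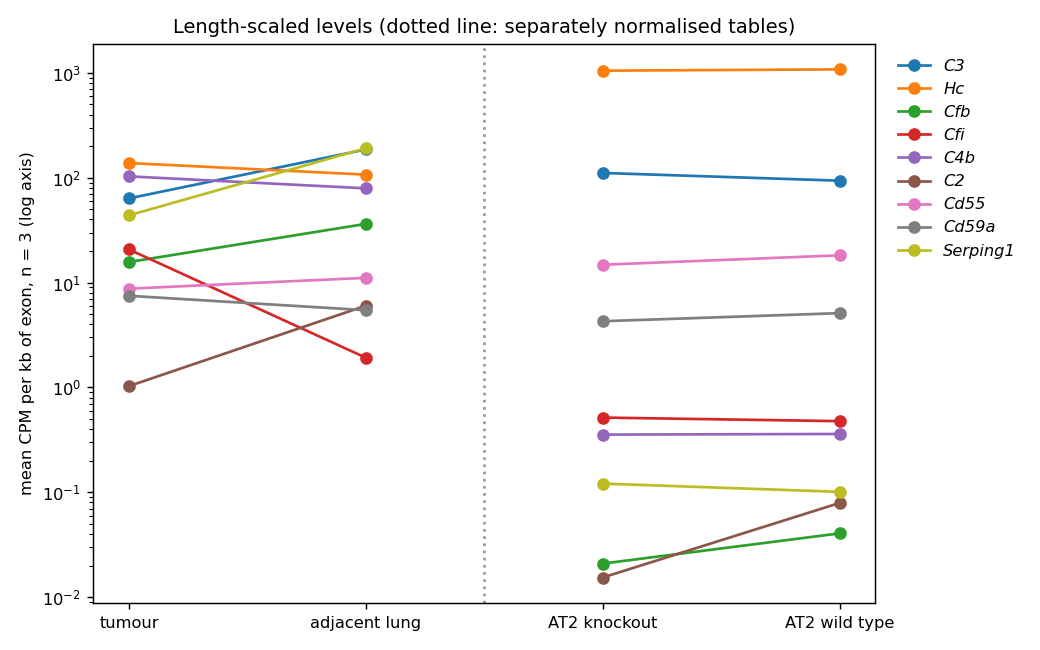
Mean level of each of the 9 genes in CPM per kb of exon (log axis, n = 3 per group) in tumour, adjacent lung, knockout AT2 cells and wild-type AT2 cells. Hc lies at 1049 and 1079 CPM per kb in AT2 cells and at 138 and 107 in tumour and adjacent lung, while Cfb, C2 and Serping1 lie below 1 in AT2 cells; the tables were normalised separately, so levels across the dotted line were not tested against each other.

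The main question of the lung samples was how tumours differed from the lung around them. Of the 9 genes Cfi rose, C2 and Serping1 fell, and 6 did not pass, where 10.0% of the 19995 genes tested passed (2.86% higher and 7.18% lower). All 9 members were tested, and their median log2 fold change was -0.34, against 0.036 for all genes. Scaling by library totals in place of TMM moved the median of all genes to -0.18 and that of the members to -0.55. In bulk tissue, fewer cells of a type and less RNA per cell cannot be told apart.

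Cfi, the protease that inactivates C3b and C4b, had the largest change of the 9. It was at 53.1, 38.0 and 47.0 CPM in tumours 102, 217 and 224, against 2.62, 5.54 and 4.60 CPM in the adjacent lung of the same mice. All 3 tumours stood above all 3 adjacent libraries, as was so for 11.6% of all genes. The mean was 46.0 ± 7.60 CPM in the tumours and 4.25 ± 1.49 CPM in adjacent lung, a 10.8-fold difference (log2 fold change 3.44 ± 0.39, adjusted p = 0.00664). Within mice the ratio of tumour to adjacent was 20.3 in mouse 102, 6.86 in mouse 217 and 10.2 in mouse 224. Cfi passed in each of the 6 fits with 1 library left out, at adjusted p = 0.00748 to 0.0328, and without both libraries of mouse 217 (log2 fold change 3.72, adjusted p = 0.0264). In AT2 cells Cfi was at 0.543 to 1.58 CPM in knockout and 0.230 to 1.95 CPM in wild-type mice, from 60 and 55 counts in all; the gap between the tables was not tested. The Cfi gene lies on chromosome 3 at 129835884 to 129875332 (GRCm38, plus strand).

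Serping1, which encodes C1 inhibitor and lies on chromosome 2 at 84765387 to 84775444 (minus strand), fell in tumours. Its values were 93.6, 172 and 39.8 CPM in tumours 102, 217 and 224, against 498, 495 and 341 CPM in adjacent lung. Every tumour lay below every adjacent library, a pattern of 18.9% of all genes. The means of 102 ± 66.5 CPM in the tumours and 445 ± 89.8 CPM in adjacent lung differed 4.37-fold (log2 fold change -2.13 ± 0.54, adjusted p = 0.0466). The call is close to the threshold. Leaving out any library but tumour 217 ended it (adjusted p up to 0.141, log2 fold change -2.29 to -1.74). So did DESeq2 size factors (0.0575), no filter on low counts (0.0615) and leaving out both libraries of mouse 217 (0.0548). Serping1 passed with the mouse as a block (0.0209), with library totals (0.0201), by limma-voom (0.0286) and by DESeq2 (0.00302).

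C2, the serine protease that joins C4b in the classical C3 convertase, also fell. It was at 2.83, 7.67 and 1.43 CPM in tumours 102, 217 and 224, against 18.7, 26.4 and 24.8 CPM in adjacent lung. No tumour reached the lowest adjacent library, as was so for 18.9% of all genes. The mean was 3.98 ± 3.28 CPM in the tumours and 23.3 ± 4.10 CPM in adjacent lung, 5.86-fold lower (log2 fold change -2.55 ± 0.62, adjusted p = 0.0419). Leaving out any library but tumour 217 ended the call (adjusted p up to 0.134, log2 fold change -2.65 to -2.15). DESeq2 size factors (0.0512) and no filter on low counts (0.0560) ended it too. Without both libraries of mouse 217 it passed (log2 fold change -3.42, adjusted p = 0.0381). C2 also passed with the mouse as a block (0.0305), with library totals (0.0188), by limma-voom (0.0192) and by DESeq2 (0.00127). C2 and Cfb lie next to each other on chromosome 17, from 34862604 to 34898265 and from 34856374 to 34862518, and a readthrough gene, Gm20547, shares 42.8% of the exonic bases of C2 and 79.5% of those of Cfb. Gm20547 was given 0, 14 and 12 counts in the tumours and 0 in each adjacent library, so the way reads were shared among the 3 can bear on both members.

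C3, the component on which all routes meet, was lower in each tumour without passing. The gene lies on chromosome 17 at 57203970 to 57228136 (minus strand). It was at 491, 306 and 182 CPM in tumours 102, 217 and 224, against 733, 926 and 1209 CPM in adjacent lung. The groups did not overlap, as for 30.5% of all genes in either direction, and within mice the adjacent level was 1.49, 3.02 and 6.65 times that of the tumour. The means were 327 ± 156 CPM in the tumours and 956 ± 239 CPM in adjacent lung (log2 fold change -1.55 ± 0.45, 95% interval -2.59 to -0.51, adjusted p = 0.0718). C3 passed by DESeq2 (0.0119), by limma-voom (0.0450) and by edgeR with library totals (0.0465). It did not pass by edgeR with DESeq2 size factors (0.0814), without the low-count filter (0.0878) or with the mouse as a block (0.0785). Nor did it pass with any 1 library left out (0.0715 to 0.211) or without both libraries of mouse 217 (0.199). The 3 genes with the closest profile over the 6 lung libraries were Zdhhc2, Wdfy4 and Stom, at root mean square differences of 0.201, 0.233 and 0.243 on the centred log2 scale, against a median of 1.10 over 11889 genes.

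**Figure D2:**
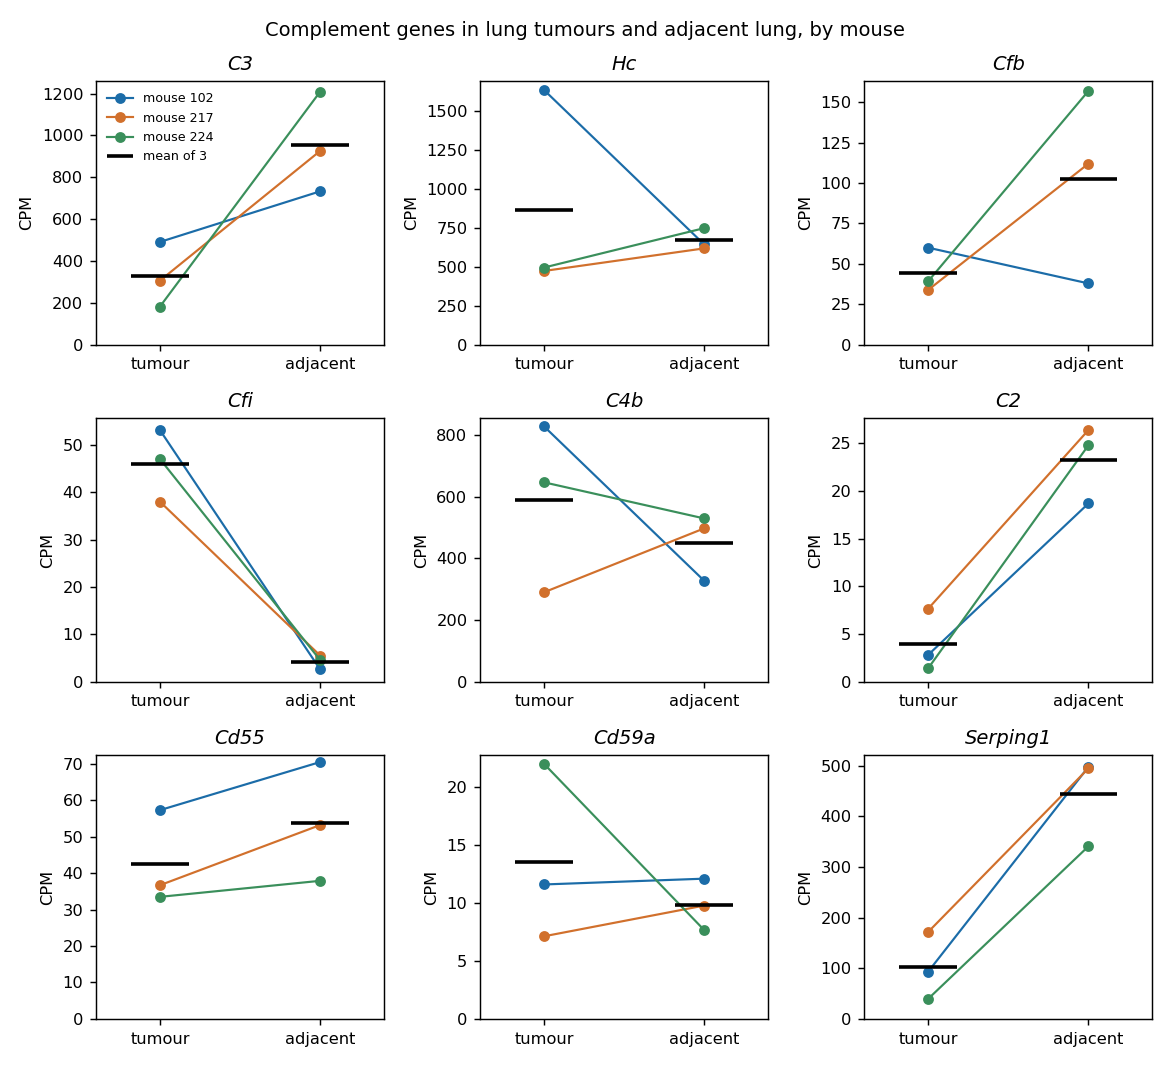
CPM of each of the 9 genes in tumour (left) and adjacent lung (right), with a line per mouse and a bar at the mean of 3 libraries. Every tumour lies above every adjacent library for Cfi, as for 11.6% of all genes, and below for C3, C2 and Serping1, as for 18.9%. The lines of Hc, Cfb, C4b and Cd59a run in both directions.

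Hc, which encodes C5, did not pass, and 1 tumour stood far from the others. The gene lies on chromosome 2 at 34983331 to 35061438 (minus strand). It was at 1634, 473 and 495 CPM in tumours 102, 217 and 224, against 643, 618 and 748 CPM in adjacent lung. Tumour 102 lay above all adjacent libraries and tumours 217 and 224 below them. The mean was 867 ± 664 CPM in the tumours and 670 ± 69.2 CPM in adjacent lung (log2 fold change 0.37 ± 0.53, 95% interval -0.86 to 1.61, adjusted p = 0.756), and without tumour 102 the log2 fold change was -0.50. Wild-type AT2 cells held 5804 to 7429.9 CPM of Hc in the other table, a gap to adjacent lung that was not tested. The profiles most like that of Hc were those of Zfp426, Man1a and Atp6v1a, at root mean square differences of 0.215, 0.235 and 0.258, against a median of 0.799.

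C4b, which encodes the C4 protein of the classical and lectin routes (chromosome 17, 34728380 to 34743882, minus strand), likewise differed among tumours. It was at 827, 290 and 646 CPM in tumours 102, 217 and 224, against 327, 497 and 529 CPM in adjacent lung. It was 2.53 times as high in the tumour of mouse 102 as in its adjacent lung, 1.22 times in mouse 224 and 0.582 times in mouse 217, and it did not pass (log2 fold change 0.38 ± 0.45, adjusted p = 0.695). Its near-identical neighbour C4a averaged 4.93 ± 3.26 CPM in the tumours and 4.15 ± 3.44 CPM in adjacent lung, and reads of the pair can be split between them.

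Cfb, which encodes the protease of the alternative route, went one way in mouse 102 and the other in mice 217 and 224. It was at 60.0, 33.9 and 39.3 CPM in tumours 102, 217 and 224, against 37.9, 112 and 157 CPM in adjacent lung. The groups overlapped and the gene did not pass (log2 fold change -1.21 ± 0.52, adjusted p = 0.211). Tumour 102 thus held more Hc, C4b and Cfb RNA than its adjacent lung, whereas in mouse 217 the tumour held less of all 3.

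The membrane regulators Cd55 (chromosome 1, 130439027 to 130462744, minus strand) and Cd59a (chromosome 2, 104095801 to 104115354, plus strand) did not pass. Cd55, which speeds the decay of C3 convertases, was at 57.3, 36.7 and 33.5 CPM in tumours 102, 217 and 224, against 70.5, 53.2 and 37.9 CPM in adjacent lung. It was lower in the tumour of each mouse, at 0.690 to 0.883 of the adjacent level, but the groups overlapped and it did not pass (log2 fold change -0.34 ± 0.36, 95% interval -1.17 to 0.49, adjusted p = 0.654). Cd59a, which blocks the membrane attack complex, was at 11.6, 7.13 and 22.0 CPM in tumours, against 12.1, 9.78 and 7.66 CPM in adjacent lung (log2 fold change 0.46 ± 0.48, 95% interval -0.65 to 1.56, adjusted p = 0.651). The high value of tumour 224 set the sign of its mean difference, since in mice 102 and 217 the tumour was slightly lower. Their copies Cd55b and Cd59b were at 0.107 ± 0.185 and 1.07 ± 0.728 CPM in tumours, against 0.700 ± 0.620 and 1.32 ± 0.429 CPM in adjacent lung, and could share reads with them.

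**Figure D3:**
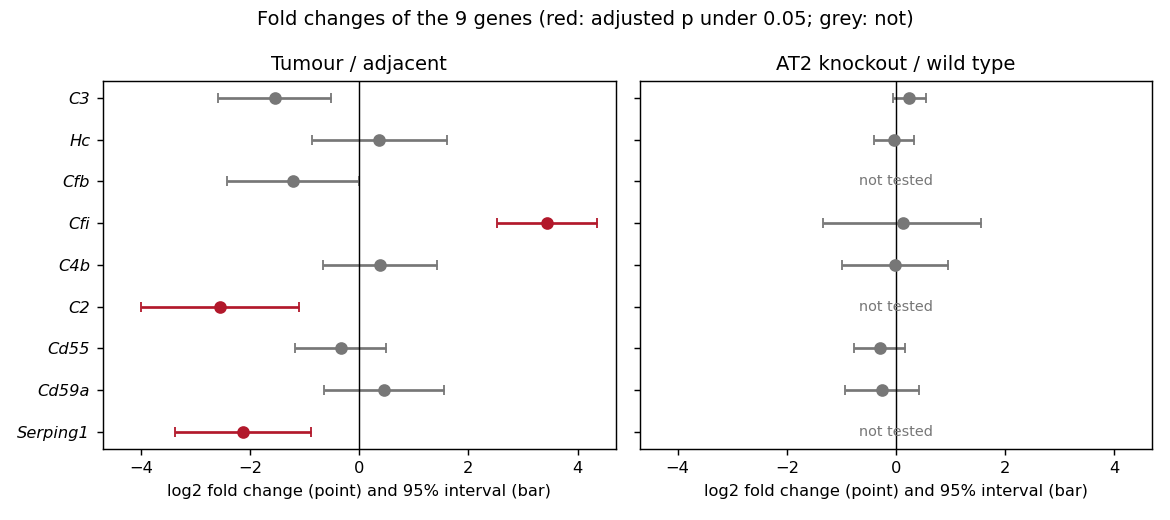
Log2 fold change (point) and 95% interval (bar) of the 9 genes for tumour over adjacent lung (left) and knockout over wild-type AT2 cells (right). Only Cfi, C2 and Serping1 in the lung panel passed, at 3.44, -2.55 and -2.13; Cfb, C2 and Serping1 were not tested in AT2 cells because of low counts.

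Markers of several cell types moved beside these genes. Of 7 endothelial markers, 6 fell, and the list summed to 569 to 614 CPM in tumours against 2568 to 4166 CPM in adjacent lung. None of 8 fibroblast markers passed, yet their sum was 466 to 1026 CPM in tumours against 1839.9 to 2890.4 CPM in adjacent lung. Of 5 club cell markers 3 fell (sum 2085 to 3032 against 18029 to 37189 CPM). Of 6 mesothelial markers 2 fell (median log2 fold change -3.61, sum 152 to 208 against 186 to 380 CPM). Krt19 had the highest CPM of the mesothelial list, at 173 ± 25.6 in tumours and 252 ± 83.0 in adjacent lung, and weighed most in its sum. Of 7 ciliated cell markers 6 fell (median log2 fold change -4.62, sum 10.4 to 36.1 against 411 to 661 CPM), of 5 smooth muscle markers 3 fell (median -2.73, sum 74.9 to 261 against 275 to 1066 CPM), and of 8 markers of AT1 cells, the flat cells of the alveolus, 3 fell (median -0.89, sum 983 to 2384 against 2319 to 3205 CPM). None of 7 markers of monocytes and other macrophages passed, and their median log2 fold change was -0.97. Apoe, at 701 ± 453 CPM in the tumours and 409 ± 189 CPM in adjacent lung, was the marker with the highest CPM in this list, whose sum was 587 to 1471 CPM in the tumours and 423 to 1162 CPM in adjacent lung. Of 10 AT2 markers 2 rose (median log2 fold change 1.42), with sums of 88782 to 233904 CPM in the tumours and 26960.0 to 59852 CPM in adjacent lung. Sftpc weighed most in these sums, at 92251 ± 78993 CPM in the tumours and 20156 ± 9929.8 CPM in adjacent lung, and did not pass (adjusted p = 0.131). Lyz2 of the same list had a log2 fold change of -0.59 (adjusted p = 0.707). Of 6 neutrophil markers 1 fell (median log2 fold change -2.72, sum 29.2 to 119 against 57.1 to 971 CPM). Of 8 alveolar macrophage markers 1 fell (median -0.59, sum 919 to 2219 against 631 to 8042 CPM). None of 7 T cell markers passed (median -1.55, sum 7.72 to 45.0 against 32.6 to 116 CPM). With the mouse as a block Cd8a (adjusted p = 0.0204) and Trac (0.0304) did. The part of these cell types in the changes of Serping1, C2, C3 and Cfi was not tested. In sorted AT2 cells the 8 fibroblast markers summed to at most 2.18 CPM and the 7 endothelial markers to at most 12.3 CPM. Serping1 was at 0.588 CPM or less there, C2 at 0.688 CPM or less and Cfb at 0.287 CPM or less. C4b, which did not pass in lung, and Cfi, which rose in tumours, were also low there, at most 2.76 and 1.95 CPM.

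Of 46 other complement genes in 7 lists, 36 were tested in lung, of which 2 rose and 4 fell. Of all 19995 genes tested, 2.86% rose and 7.18% fell. The median log2 fold change of the 36 was -0.43, against 0.036 for all genes. Among fluid-phase regulators (6 tested, median -0.68), Clu rose and Vtn and Cpn2 fell. Clu encodes clusterin, a chaperone that binds terminal complexes, and was at 5577, 1636 and 5888 CPM in tumours 102, 217 and 224, against 228, 356 and 446 CPM in adjacent lung. All tumours exceeded all adjacent libraries, as was so for 11.6% of all genes. The means differed 12.7-fold (log2 fold change 3.67 ± 0.62, adjusted p = 0.0147), and the call was lost without any 1 of the adjacent libraries (adjusted p up to 0.0560). Vtn, encoding vitronectin, another inhibitor of the attack complex, averaged 1.41 ± 0.892 CPM in the tumours and 10.0 ± 3.24 CPM in adjacent lung (log2 fold change -2.83 ± 0.62, adjusted p = 0.0304). Cpn2, the regulatory subunit of the carboxypeptidase that inactivates anaphylatoxins, had 0 counts over the tumours and 265 over the adjacent libraries, at least 78.5-fold lower against a floor of 3 counts over the group (adjusted p = 0.0251). Vtn and Cpn2 lost their calls when any library but tumour 217 was left out (adjusted p up to 0.102 and 0.0825) and when both libraries of mouse 217 were (0.0566 and 0.0715), and with the mouse as a block Cpn2 did not pass (0.0505).

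The classical start, lectin and receptor lists had 1 gene each that passed. C1s1, the protease that cuts C4 and C2, fell to 44.9, 40.9 and 18.3 CPM in tumours 102, 217 and 224, against 183, 170 and 138 CPM in adjacent lung (log2 fold change -2.24 ± 0.40, adjusted p = 0.0174), as 1 of 8 tested in its list (median -0.27). It did not pass without adjacent 102 or adjacent 224 (adjusted p up to 0.0611), nor without both libraries of mouse 217 (0.0644). Mbl1, a mannose-binding lectin, rose to 2.19, 15.5 and 7.89 CPM in tumours, against 1.18, 0.870 and 0.532 CPM in adjacent lung (log2 fold change 3.31 ± 0.78, adjusted p = 0.0370; 4 tested, median 0.07). Its call held without tumour 102 and ended without any other single library (adjusted p up to 0.127), without both libraries of mouse 217 (0.179), with the mouse as a block (0.0743), with limma-voom (0.0839) and without the low-count filter (0.0503). Cr2, the receptor for C3 fragments known from B cells, fell to 0.223 ± 0.129 CPM in tumours, against 2.15 ± 0.506 CPM in adjacent lung (log2 fold change -3.26 ± 0.71, adjusted p = 0.0299; 8 tested, median -1.71). Without any library but tumour 217 it did not pass (adjusted p up to 0.107), nor without both libraries of mouse 217 (0.0659). The 6 B and plasma cell markers summed to 36.1 to 240 CPM in the tumours and 189 to 1228 CPM in adjacent lung.

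No gene passed among the terminal (3 tested, median -1.09), alternative (1 tested) and membrane regulator (6 tested, median -0.25) lists. C7, which follows C5 and C6 into the attack complex, was the highest of the terminal list over all lung libraries, at 2.33, 10.6 and 0.0583 CPM in tumours 102, 217 and 224, against 305, 58.0 and 149 CPM in adjacent lung. Its groups did not overlap, as was so in this direction for 18.9% of all genes, but its spread was wide (log2 fold change -5.30 ± 1.50, adjusted p = 0.0665). Cfp, encoding properdin, averaged 35.9 ± 12.9 CPM in the tumours and 48.4 ± 24.2 CPM in adjacent lung (adjusted p = 0.657). Cr1l, encoding the rodent membrane regulator Crry, averaged 48.2 ± 7.69 CPM in the tumours and 68.0 ± 17.3 CPM in adjacent lung (adjusted p = 0.400).

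**Figure D4:**
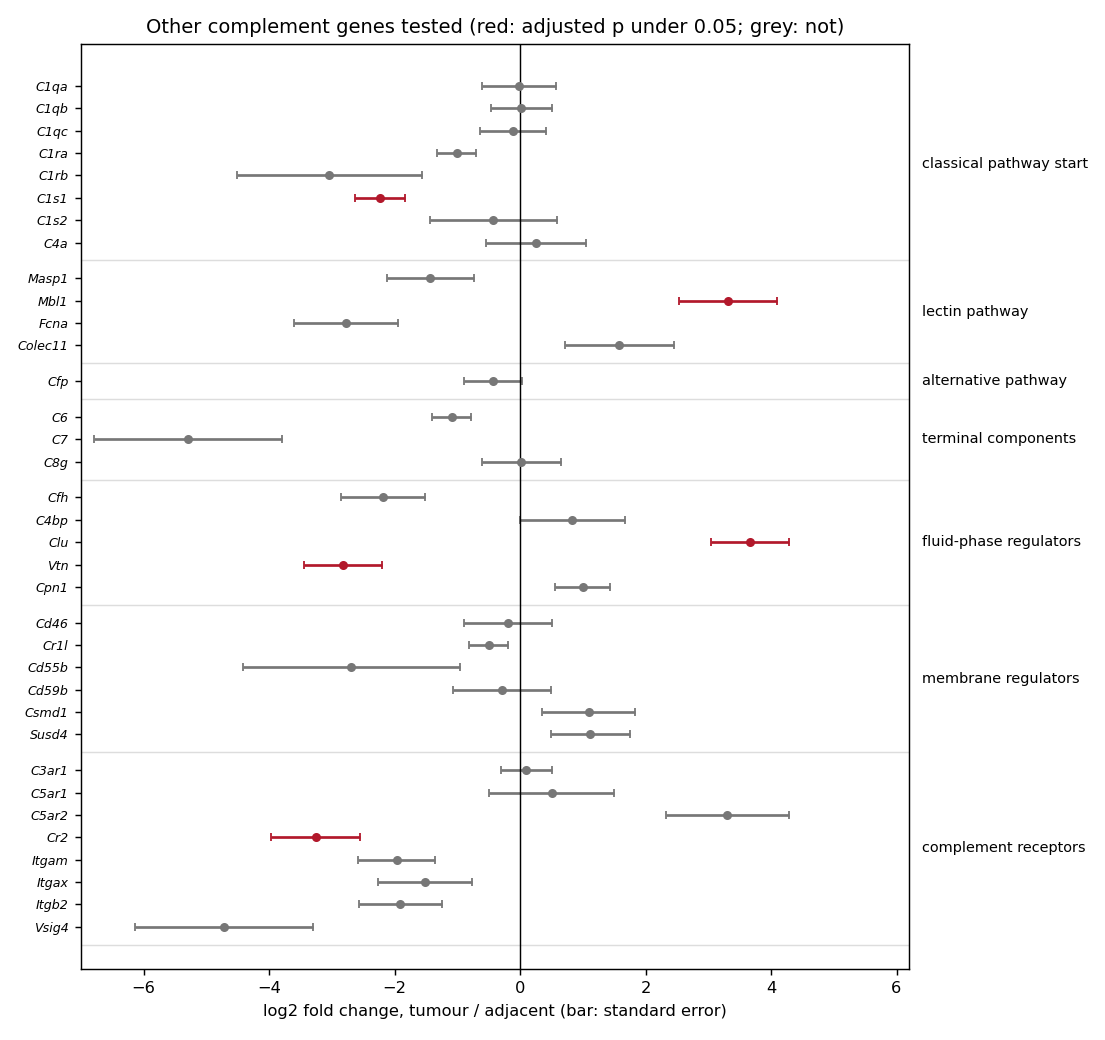
Log2 fold change, tumour over adjacent lung, with its standard error for the other complement genes tested, by list; Cpn2 is left out of the plot because its tumour libraries had 0 counts. Clu (3.67) and Mbl1 (3.31) lie to the right and C1s1, Vtn and Cr2 to the left among the genes that passed.

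The AT2 samples address how these cells differed between knockout and wild-type mice at the younger age. None of the 6 members tested passed, and edgeR called 0 of 14053 genes (0%). Without adjustment, 347 genes (2.47%) had a p under 0.05, none of them a member, and by DESeq2 and limma-voom 1 and 0 genes passed. The members tested had a median log2 fold change of -0.028, against -0.0065 for all genes.

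C3 was the member whose AT2 groups stood apart. It was at 562, 584 and 566 CPM in knockout mice 175, 179 and 191, against 491, 448 and 506 CPM in wild-type mice 176, 177 and 190. The knockout libraries were all above the wild-type ones, as for 4.19% of all genes tested (8.30% with 4.11% in the opposite order), but the difference was small and did not pass (570 ± 11.6 against 482 ± 30.3 CPM, log2 fold change 0.24 ± 0.14, 95% interval -0.06 to 0.55, adjusted p = 0.984). Hc was at 6720.0, 6373 and 6623 CPM in knockout mice and 7039, 5804 and 7429.9 CPM in wild-type mice 176, 177 and 190. Its groups overlapped (log2 fold change -0.04 ± 0.17, 95% interval -0.41 to 0.33, adjusted p = 0.991). Hc alone took 0.640% to 0.689% of the counts of knockout and 0.535% to 0.750% of those of wild-type AT2 libraries.

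Among the regulators, wild-type 177 was the high library. Cd55 was at 68.9, 74.5 and 72.0 CPM in knockout mice, against 61.3, 123 and 80.9 CPM in wild-type mice 176, 177 and 190 (log2 fold change -0.30 ± 0.22, 95% interval -0.77 to 0.17, adjusted p = 0.984). Cd59a was at 8.47, 9.88 and 4.88 CPM in knockout mice, against 6.59, 13.0 and 8.15 CPM in wild-type mice (log2 fold change -0.25 ± 0.31, adjusted p = 0.984). Without wild-type 177 their log2 fold changes were 0.01 and 0.07, and no member passed. C4b averaged 2.02 ± 0.871 and 2.05 ± 0.754 CPM in knockout and wild-type cells (95% interval of the log2 fold change -0.99 to 0.96) and Cfi 1.15 ± 0.538 and 1.06 ± 0.862 CPM (-1.33 to 1.56), so the intervals of these 2 low genes are wide.

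**Figure D5:**
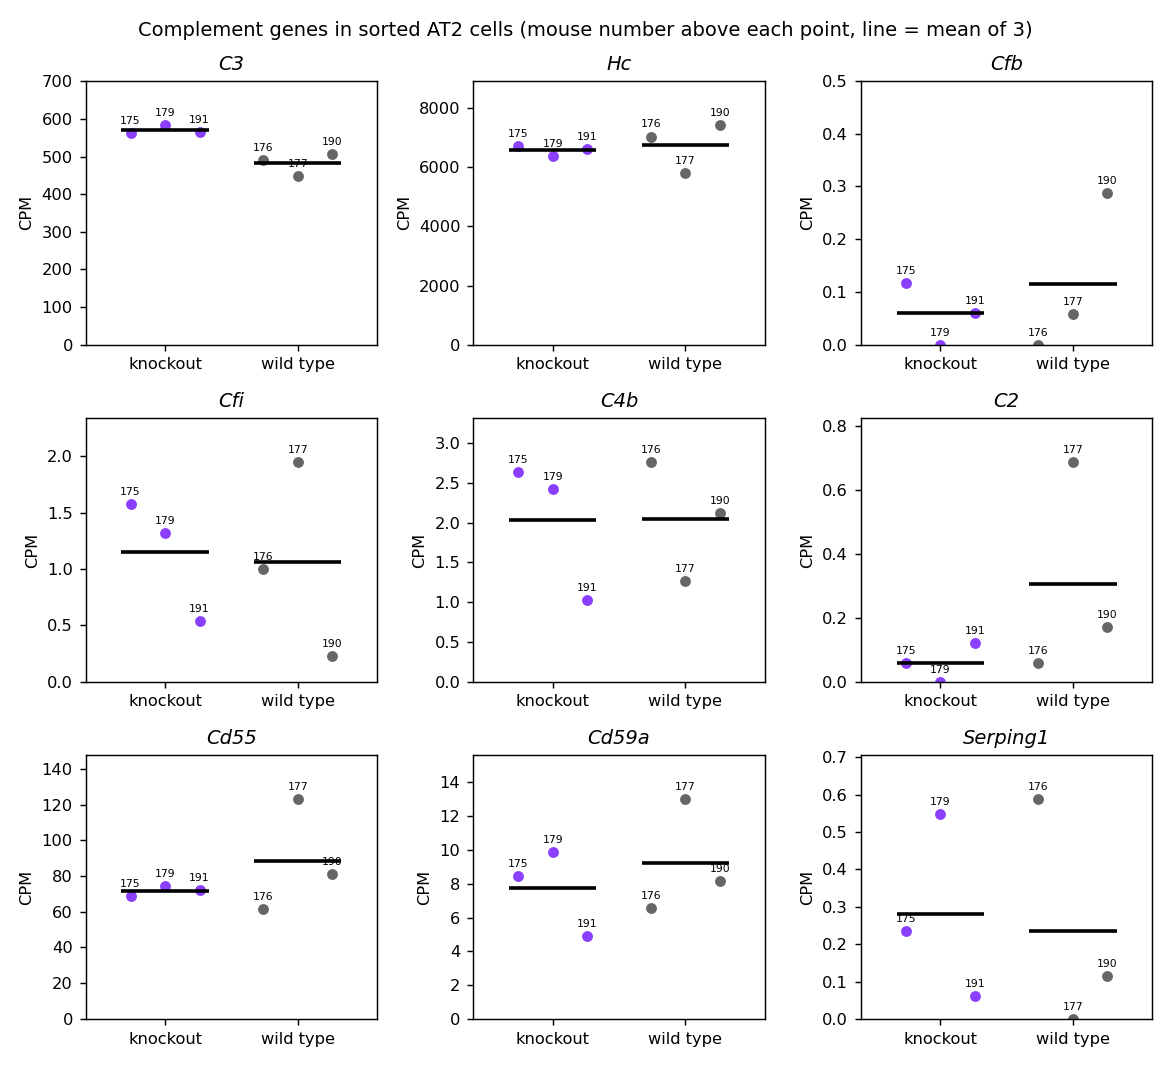
CPM of each of the 9 genes in sorted AT2 cells of knockout (left) and wild-type (right) mice, with the mouse number above each point and a line at the mean of 3. The C3 points of knockout mice, 562 to 584 CPM, lie above those of wild-type mice, 448 to 506 CPM, as for 4.19% of all genes tested. The groups of the other genes overlap.

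Of the 46 other complement genes, 15 were tested in AT2 cells and none passed. C6, a terminal component, was the most abundant of them by CPM, at 316, 357 and 323 CPM in knockout mice and 298, 301 and 355 CPM in wild-type mice. Clu averaged 159 ± 16.6 and 153 ± 56.3 CPM, Cr1l 54.2 ± 1.85 and 51.6 ± 5.84 CPM, Mbl1 24.0 ± 2.71 and 18.6 ± 3.73 CPM and C5ar2, a receptor for the C5 fragment, 15.2 ± 2.32 and 17.0 ± 1.85 CPM in knockout and wild-type cells. Cfp averaged 6.15 ± 0.220 and 5.73 ± 2.18 CPM and C1ra, a protease of the classical start, 3.19 ± 1.33 and 4.39 ± 2.15 CPM. No counts of Cfd, C8a, C8b or C9 were found in any AT2 library, which allows up to 0.181 CPM per library.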

How the data were processed

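The 12 libraries were made from poly-A RNA, per the labels' protocols by the NEBNext Ultra RNA chemistry; it keeps no strand, so reads of overlapping genes cannot be told apart. The authors deposited raw integer counts for each gene. The submitters' processing notes name the build GRCm38 (mm10), HISAT2 (an aligner), DESeq2 1.28.1, StringTie 1.3.3b, Trimmomatic 0.39 and FastQC; the counter, its strand setting and the annotation release were not given in the sources used here. Names, coordinates and exon lengths came from GENCODE M21, which left 1035 lung and 37 AT2 identifiers unmatched (0.0388% and 0.00383% of counts), and promoters from RefSeq.

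Each table was normalised and tested alone in R 4.3.3 with edgeR 4.0.16 (low-count filter, TMM, quasi-likelihood test, Benjamini-Hochberg adjustment over all genes tested), with group as the only term; errors of log2 fold changes are standard errors and intervals use the test's degrees of freedom. limma 3.58.1 and DESeq2 1.42.0 served as alternatives. Tumour and adjacent lung with the same mouse number came from the same animal. Their deviations from the group means had Pearson r across 19995 genes of 0.273, 0.459 and 0.366 in mice 102, 217 and 224. Libraries of unlike mouse number were not compared in this way, so the pairing rests on the labels. Mice are separate animals, and no 2 libraries of a group agreed within counting noise (chi-square per degree of freedom of at least 7.23). Floors cover counting error only. Sets of genes are described by counts and medians, with no set test. The members and lists were chosen with earlier results of these data known. All 9 members are named, as are list genes that passed, the highest tested gene of lists without one, and the 3 profiles closest to C3 and Hc among genes of at least 5 CPM, without predicted genes or antigen receptor segments.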

Additional observations from a re-analysis of the deposited data

How the results depend on the processing

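In lung, 3 members passed, and the same 3 did with the mouse as a replicate block, where C3 did not pass either (adjusted p = 0.0785). The number was 1 (Cfi) with DESeq2 size factors and without the low-count filter, 4 with library totals, DESeq2 and limma-voom, 2 without both libraries of mouse 217, and 1 to 3 with 1 library left out. Of all genes 2007 passed (571 higher, 1436 lower), against 2980 with the block, 3729 by DESeq2, 847 without both libraries of mouse 217 and 598 to 1854 with 1 library left out; library totals gave 393 higher and 1840 lower. Of the other complement genes 6 passed, against 7 with the block, 14 by DESeq2, 1 without both libraries of mouse 217 and 0 to 7 with 1 library left out. In AT2 cells 0 genes passed, against 17 without the low-count filter, 1 by DESeq2 and 0 to 1 with 1 library left out; 0 members and 0 other complement genes passed in any of these fits. Fewer libraries also mean less power. No paired analysis was possible for AT2 cells because knockout and wild-type mice share no number. Depth limits Cfb, C2 and Serping1 in AT2 cells, which were below the filter.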

Other observations

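Genes known to induce complement transcription and genes of the acute phase were listed as companions. Of 12 tested inducers none passed in lung with edgeR. Cebpb, the highest, averaged 235 ± 71.9 CPM in the tumours and 435 ± 181 CPM in adjacent lung (adjusted p = 0.269). The median log2 fold change of this list was -1.02, against 0.036 for all genes tested. Of 12 acute phase and epithelial defence genes, Lbp rose and Saa2 fell, where 2.86% of all genes rose and 7.18% fell. Lbp, encoding lipopolysaccharide-binding protein, was at 321, 371 and 641 CPM in tumours 102, 217 and 224, against 75.3, 125 and 150 CPM in adjacent lung (log2 fold change 1.93 ± 0.42, adjusted p = 0.0304). Lbp did not pass with library totals (0.0512), without both libraries of mouse 217 (0.0998) or without any single library but tumour 217 (adjusted p up to 0.0928). Saa2, a serum amyloid gene, had 0 counts over the tumours and 121 over the adjacent libraries, a fall of at least 34.6-fold with adjusted p = 0.0426, and did not pass with any 1 library left out (up to 0.137), without both libraries of mouse 217 (0.101) or with the mouse as a block (0.0839). In AT2 cells none of 9 inducers and 8 acute phase genes tested passed; haptoglobin (Hp) was the highest, at 725 ± 44.3 CPM in knockout and 714 ± 107 CPM in wild-type cells.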
